A study of Mus musculus with 8 samples.

Results

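Eps15 and 9 other genes of clathrin-mediated endocytosis were followed in lymph node stromal cells that had received siRNA against Eif4g3, a relative of the translation initiation scaffold eIF4G1. The 10 genes were Eps15, Eps15l1, Epn1, Epn2, Itsn1, Dab2, Ap2a1, Ap2a2, Ap2b1 and Ap2m1. They were found by the gene name given with each probe, which gave 26 of the 41174 probes on the array. Of these, 23 probes, at least 1 for each gene, were bright enough to be tested, among 21413 such probes of 14861 genes. Eps15 was chosen by its measured log2 ratios of Eif4g3 siRNA to control siRNA, which were strongly positive in both RNA fractions, so its knockdown ratios are described here without a test. The other genes belong to the same pathway.

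In clathrin-mediated endocytosis, receptors and their ligands are gathered into pits on the inner face of the plasma membrane, coated with clathrin, pinched off and taken inside. The adaptor complex AP2 links cargo and membrane lipid to clathrin. Eps15 and its close relative Eps15l1 carry EH domains, bind AP2 and act early at the coated pit, epsins (Epn1, Epn2) help to bend the membrane and bind ubiquitinated cargo, intersectin (Itsn1) is a scaffold, and Dab2 is a cargo adaptor for receptors of the LDL receptor family.

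The series holds 8 Agilent 2-colour arrays of cultured BALB/c lymph node stromal cells, 4 of heavy polysome RNA, which is enriched for mRNAs carrying many ribosomes, and 4 of total RNA. On each array the Cy5 channel held cells given Eif4g3 siRNA and the Cy3 channel held cells given control siRNA, both of 1 fraction. Dyes were never swapped, so in a single fraction a probe's dye bias and a change of its transcript cannot be told apart. Both siRNAs were delivered at 400 pmol with Lipofectamine 2000 to 7 plates each, and cells were harvested at 48 h. Cells were pooled for the sucrose gradient. No label states that replicates are independent cultures, so p-values measure only the spread between these samples, which may be technical.

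All 8 stromal markers examined, among them Pdgfra, Pdpn and Col1a1, were well above background on all 8 arrays. The lymphocyte marker Ptprc, the endothelial marker Pecam1 and the lymphatic marker Lyve1 were above background on no array. Of 8 macrophage markers, 5 were above background on all arrays, while Emr1, Itgam and C1qa were above it on none. The 5 detected macrophage markers had mean log2 ratios of -1.39 (Trem2) to 0.05 (Lyz2) on heavy polysomes and -0.80 (Trem2) to -0.04 (Lyz2) in total RNA, and their part in the results below was not tested. The 2 Eif4g3 probes averaged log2 ratios of -2.46 and -2.07 in heavy polysome RNA and -2.07 and -1.95 in total RNA, and were lower after Eif4g3 siRNA on every array. Heavy polysome replicates 2 and 4 resembled each other more than any other pair of arrays (r = 0.884 over the tested genes), so calls on heavy polysomes were also made with these 2 averaged into 1 replicate. Each of the 5 slides held 1 fraction only, so slide and fraction cannot be told apart. The ratios below are loess-normalised log2 values, Eif4g3 siRNA divided by control siRNA, and means are given ± SD with n = 4 arrays per fraction.

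Eps15, the EH-domain adaptor of the early coated pit, had higher signal after Eif4g3 siRNA on all 8 arrays. In such bulk RNA, more cells of a type and more RNA per cell cannot be told apart. Its brightest probe, A_51_P156243, lies on chromosome 4 at bases 108883459 to 108883518 (mm8). In heavy polysome RNA the normalised log2 signal was 10.00, 9.69, 10.00 and 9.46 in Eif4g3 siRNA cells, against 9.07, 7.99, 7.95 and 7.76 in control siRNA cells, for replicates 1 to 4. In total RNA it was 9.82, 9.82, 9.20 and 9.44 in Eif4g3 siRNA cells, against 7.83, 8.46, 7.56 and 7.62 in control siRNA cells. The siRNA groups did not overlap in either fraction, for a gene chosen by the ratios of these values. The control sample of heavy polysome replicate 1 was the highest of the control values.

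**Figure D1:**
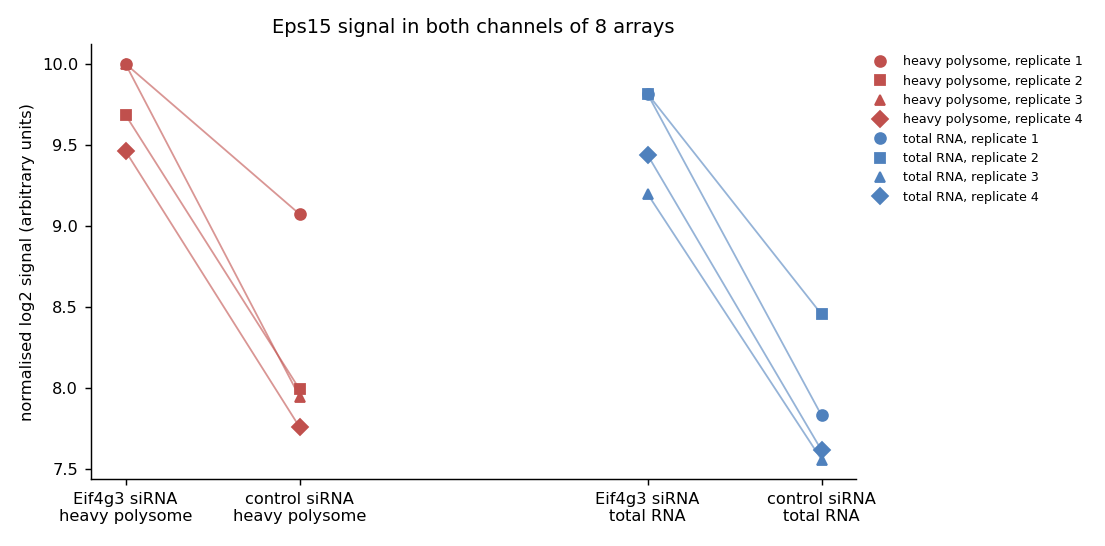
Normalised log2 signal of the Eps15 probe A_51_P156243 on the y axis, in arbitrary units, for Eif4g3 siRNA and control siRNA cells in heavy polysome RNA (left pair) and total RNA (right pair). Each line joins the channels of 1 array, and every line slopes downward from Eif4g3 siRNA to control siRNA, with the least steep line in heavy polysome replicate 1 (10.00 against 9.07).

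The ratios of this Eps15 probe were 0.93, 1.69, 2.05 and 1.70 in heavy polysome RNA and 1.98, 1.36, 1.64 and 1.82 in total RNA. They averaged 1.59 ± 0.47, a 3.02-fold higher level, on heavy polysomes, and 1.70 ± 0.27, a 3.25-fold higher level, in total RNA. Ordered from the highest ratio down, Eps15 stood at place 2 of 14861 tested genes in each fraction, which describes how it was chosen. The dyes were unevenly bright, and this bears on how the ratio arises. On heavy polysome array 1 the raw mean signals of Eps15 were 946 in the Eif4g3 siRNA channel and 121 in the control channel, where the median log2 ratio of tested genes was 1.47 before loess. On total RNA array 1 they were 674 and 669, where that median was -1.77.

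A further Eps15 probe, A_52_P360595, lies near the brightest one on the same chromosome, at bases 108885348 to 108885407. Its log2 ratios were 1.17, 1.55, 0.85 and 1.44 in heavy polysome RNA (mean 1.25 ± 0.31) and 1.40, 0.80, 1.26 and 0.47 in total RNA (mean 0.98 ± 0.43). All 8 of these values were above 0, and the mean in total RNA lay below that of the brightest probe. The remaining Eps15 probe, A_52_P225514 at bases 108823296 to 108823355, was well above background in neither channel on any array and gives no ratio. The files do not place these probes in exons or UTRs.

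Eps15l1, the closest relative of Eps15 among the members, did not pass the test in either fraction. Its log2 ratios were -0.45, -0.15, -0.57 and -0.13 in heavy polysome RNA and 0.01, 0.02, 0.10 and -0.09 in total RNA. The mean was -0.32 ± 0.22 on heavy polysomes (limma adjusted p = 0.0702) and 0.01 ± 0.08 in total RNA (limma adjusted p = 0.966). The heavy polysome mean lay below that of total RNA. Its other probe, A_52_P528963, gave nearly the same mean in both fractions, -0.19 ± 0.45 and -0.18 ± 0.45.

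Epn1, which encodes epsin 1, fell on heavy polysomes. The log2 ratios were -0.94, -0.13, -0.75 and -0.22 in heavy polysome RNA and -0.03, -0.13, -0.03 and -0.24 in total RNA. The mean of -0.51 ± 0.40 on heavy polysomes corresponds to 1.42-fold lower (limma adjusted p = 0.0465), and the mean of -0.11 ± 0.10 in total RNA did not pass (limma adjusted p = 0.705). The heavy polysome values split into lower ones in replicates 1 and 3 and ones near those of total RNA in replicates 2 and 4. The other Epn1 probe, A_52_P323074, averaged 0.04 ± 0.08 on heavy polysomes and -0.14 ± 0.16 in total RNA. It was well above background in the Eif4g3 siRNA channel on 3 of 4 arrays of each fraction and in the control channel on 2 of 4 heavy polysome arrays. The Epn1 call rests on A_51_P459647 (chromosome 7, bases 4701101 to 4701160). The call was lost without total RNA replicate 1, 2 or 3 (limma adjusted p = 0.0638, 0.0797 and 0.0772), without heavy polysome replicate 1, 3 or 4 (0.113, 0.124 and 0.0780), and with heavy polysome replicates 2 and 4 averaged (0.0611).

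Epn2, the gene of epsin 2, had log2 ratios of -0.12, 0.25, 0.22 and 0.03 in heavy polysome RNA and -0.02, -0.29, 0.30 and -0.79 in total RNA. The fractions overlapped and neither mean passed (0.10 ± 0.17, limma adjusted p = 0.744, and -0.20 ± 0.46, limma adjusted p = 0.498). Itsn1, the intersectin 1 scaffold, had ratios of -0.15, -0.14, -0.18 and -0.09 in heavy polysome RNA and -0.35, 0.01, -0.11 and -0.09 in total RNA. Even its brightest probe, A_52_P396498, was dim, with raw Eif4g3 siRNA signals of 49 to 87 in total RNA. In that channel it was well above background on 3 of 4 total RNA arrays. Under other processing settings the total RNA value of Itsn1 ran from -0.43 to 0.26. Its means of -0.14 ± 0.04 and -0.13 ± 0.15 did not pass (limma adjusted p = 0.340 and 0.390). Dab2 averaged 0.07 ± 0.19 on heavy polysomes and 0.07 ± 0.17 in total RNA, with values on both sides of 0 in each fraction (limma adjusted p = 0.702 and 0.744). The Itsn1 probes A_51_P108645 and A_52_P438188 and the Dab2 probe A_52_P17534 were not well above background in the Eif4g3 siRNA channel on any total RNA array, so no fold is given for them there.

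**Figure D2:**
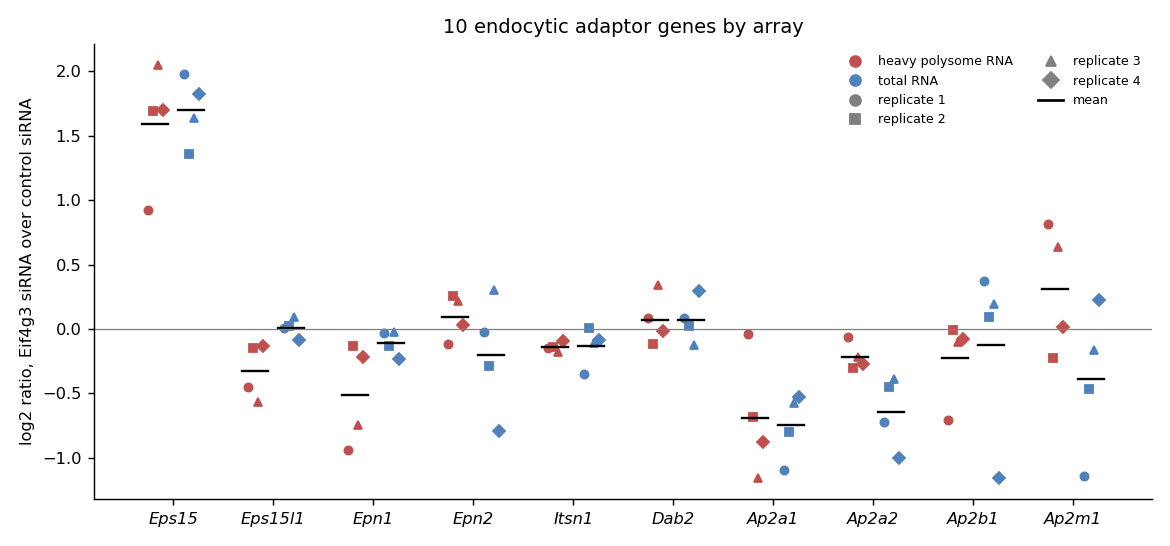
Log2 ratio of Eif4g3 siRNA over control siRNA (y axis) for the brightest probe of each of the 10 genes (x axis), with heavy polysome RNA left of total RNA, 1 symbol per replicate and a bar at the mean. Eps15 lies between 0.93 and 2.05 on every array, and the other genes lie between -1.16 and 0.81.

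The AP2 complex is built of a large alpha subunit (Ap2a1 or Ap2a2), a beta subunit (Ap2b1), a medium mu subunit that recognises cargo (Ap2m1) and a small sigma subunit. Among these, both alpha subunit genes fell in total RNA and Ap2a1 also fell on heavy polysomes. Ap2a1 has 1 probe, A_51_P142057, on chromosome 7 at bases 44769099 to 44769158. Its log2 ratios were -0.04, -0.68, -1.16 and -0.88 in heavy polysome RNA and -1.09, -0.80, -0.58 and -0.53 in total RNA. All 8 values were below 0, with heavy polysome replicate 1 close to 0.

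Ap2a1 averaged -0.69 ± 0.48 on heavy polysomes, 1.61-fold lower (limma adjusted p = 0.0342), and -0.75 ± 0.26 in total RNA, 1.68-fold lower (limma adjusted p = 0.0405). The heavy polysome call was lost without total RNA replicate 2 or 3 (limma adjusted p = 0.0611 and 0.0572), without heavy polysome replicate 2, 3 or 4 (0.102, 0.0992 and 0.141), and with heavy polysome replicates 2 and 4 averaged (0.120). Its call in total RNA was lost on leaving out any of total RNA replicates 1 to 4 (limma adjusted p = 0.142, 0.127, 0.120 and 0.0789) and without heavy polysome replicate 2 or 4 (0.0716 and 0.0702), since all arrays share 1 estimate of the spread. Ap2a1 averaged between -0.91 and -0.53 on heavy polysomes and between -0.82 and -0.63 in total RNA in these fits.

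Ap2a2 was represented by A_52_P354298 on chromosome 7 at bases 141483714 to 141483773. Its log2 ratios were -0.06, -0.30, -0.22 and -0.27 in heavy polysome RNA and -0.72, -0.45, -0.39 and -1.002 in total RNA. Ap2a2 averaged -0.64 ± 0.28 in total RNA, 1.56-fold lower (limma adjusted p = 0.0186), and -0.21 ± 0.11 on heavy polysomes (limma adjusted p = 0.265). Its call in total RNA was lost on leaving out any of total RNA replicates 1 to 4 (limma adjusted p = 0.0702, 0.0556, 0.0565 and 0.0507). The other probes of Ap2a2 averaged 0.05 ± 0.49 and -0.20 ± 0.24 on heavy polysomes and -0.32 ± 0.45 and -0.25 ± 0.06 in total RNA, none of them called. With the mean of the 3 probes Ap2a2 had a log2 ratio of -0.40 in total RNA (limma adjusted p = 0.0556).

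Ap2b1, the beta subunit gene, had log2 ratios of -0.71, -0.01, -0.10 and -0.07 in heavy polysome RNA and 0.37, 0.09, 0.19 and -1.15 in total RNA. A single array stood apart in each fraction, and neither mean passed (-0.22 ± 0.33, limma adjusted p = 0.587, and -0.12 ± 0.70, limma adjusted p = 0.809). Ap2m1, the mu subunit gene, had ratios of 0.81, -0.23, 0.64 and 0.02 in heavy polysome RNA and -1.14, -0.47, -0.16 and 0.23 in total RNA at A_51_P510949. These means, 0.31 ± 0.50 and -0.39 ± 0.58, did not pass either (limma adjusted p = 0.428 and 0.351).

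The 4 Ap2m1 probes, all within bases 20456878 to 20458153 of chromosome 16, all had negative means in total RNA, of -0.39, -0.37, -0.14 and -0.54. On heavy polysomes they averaged 0.31, -0.33, -0.21 and 0.14 in the same probe order and so disagreed in sign. The third of these probes, A_52_P422976, was dim, being well above background in the Eif4g3 siRNA channel on 3 of 4 heavy polysome arrays and only 1 of 4 total RNA arrays. None of the 8 means passed the test among all probes.

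**Figure D3:**
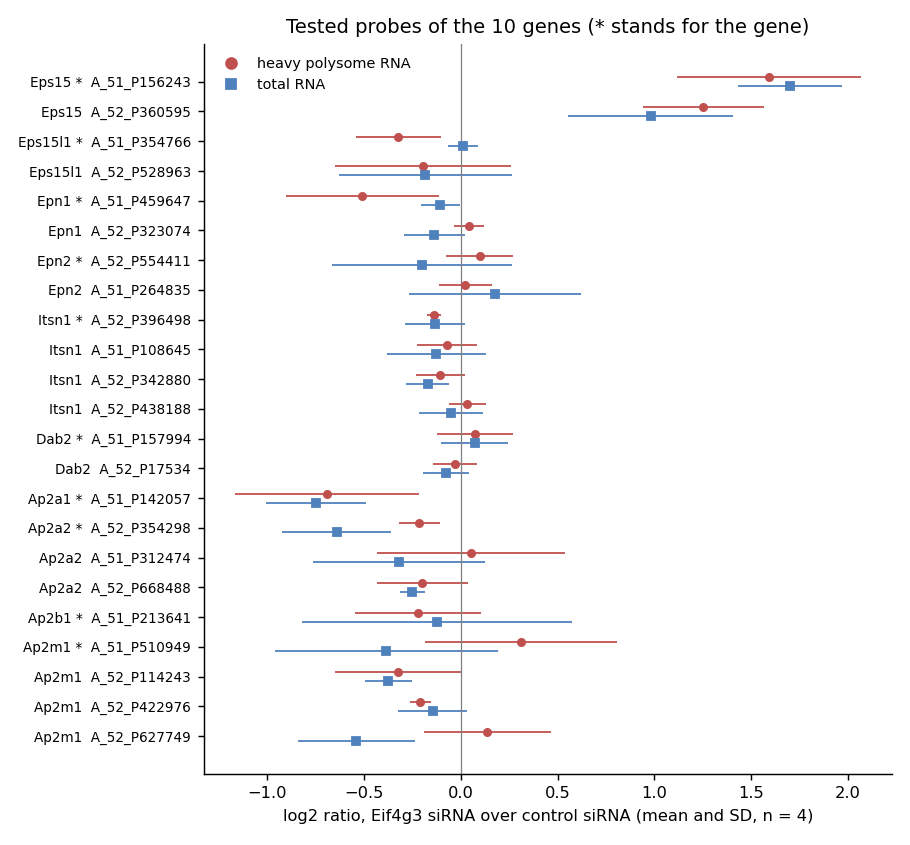
Mean log2 ratio of Eif4g3 siRNA over control siRNA (x axis) of the 23 tested probes (y axis), with heavy polysome RNA above total RNA and bars of 1 SD over 4 arrays. The 2 Eps15 probes stand to the right of 0 in both fractions, Ap2a1 stands to the left in both, and the probes of Epn1, Ap2a2 and Ap2m1 differ among themselves.

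Of the 9 genes other than Eps15, none was called higher and 2 were called lower on heavy polysomes (Ap2a1 and Epn1), where 4.82% of all tested genes were called higher and 4% lower. In total RNA none was called higher and 2 were called lower (Ap2a1 and Ap2a2), where the shares over all tested genes were 1.67% higher and 2.64% lower. The median log2 ratio of the 9 genes was -0.21 on heavy polysomes and -0.13 in total RNA, beside medians of 0.02 and -0.04 over all 14861 genes. With heavy polysome replicates 2 and 4 averaged, none of the 9 was called on heavy polysomes and Ap2a2 alone was called in total RNA. With arrays centred on the median in place of loess, Ap2a2 in total RNA was the only call among the 9 in either fraction (limma adjusted p = 0.0477). With Feature Extraction's processed signals, Ap2a1 was the only one, in both fractions (limma adjusted p = 0.0123 on heavy polysomes and 0.00978 in total RNA). On heavy polysomes none of the 9 was called with no filter on dim probes (limma adjusted p = 0.0625 for Ap2a1 and 0.0702 for Epn1) or with each fraction fitted alone (0.107 and 0.150). Such member calls stand beside counts over all genes of 1312 on heavy polysomes and 640 in total RNA in the main fit. These became 450 and 303 with replicates averaged, 193 and 214 with median centring and 2078 and 1481 with processed signals. On heavy polysomes the count was 1158 with no filter, among more tested genes, and 384 with each fraction fitted alone. A member call lost where fewer genes are called is therefore not particular to the members. Of the 9 settings that differ in processing or model rather than in a left-out array, the heavy polysome call was lost in 7 for Epn1 and in 4 for Ap2a1, and the total RNA call in 3 for Ap2a1 and in 3 for Ap2a2. The settings are not separate checks, since processed signals and the deposited matrix hold nearly the same ratios.

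The difference between the ratios on heavy polysomes and in total RNA asks whether an mRNA changed on heavy polysomes beyond its total level, relative to other mRNAs. Each array was centred by loess, so a change of polysome loading common to all mRNAs would not show. A dye bias equal on all arrays cancels in the difference, but the balance of the dyes before loess differed between arrays. For Eps15, given without a test since it is built from the ratios that chose the gene, this difference was -0.11 on the log2 scale at its brightest probe and 0.27 at A_52_P360595, so its probes differed in sign. None of the 9 other genes was called, as was none of all tested genes (0% called by limma, with 784 genes, 5.28%, at an unadjusted p under 0.05). Ap2a2 (0.43, 95% interval 0.08 to 0.78) and Eps15l1 (-0.33, interval -0.64 to -0.03) had intervals that leave out 0 before adjustment, both with a limma adjusted p of 0.845. Ap2m1 had the difference of largest size, 0.70, with an interval of -0.01 to 1.41. The other probes of these genes did not all give such differences. They gave 0.05, -0.06 and 0.68 for Ap2m1, 0.37 and 0.05 for Ap2a2 and -0.01 for Eps15l1.

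In control siRNA cells the level on heavy polysomes was set against that in total RNA, from the Cy3 channel alone. For Eps15 these control levels also enter the ratios that chose it, so they are described without a test. None of the 9 other genes was called (limma), where 0.0135% of all tested genes were called higher on heavy polysomes and 2.1% lower. Eps15 had a log2 difference of 0.33, from log2 levels of 8.19 ± 0.60 on heavy polysomes and 7.87 ± 0.41 in total RNA. Of the others, Epn1 (-0.47, interval -1.20 to 0.25) and Ap2b1 (-0.47, interval -1.10 to 0.17) were the lowest and Itsn1 (0.27, interval -0.20 to 0.73) the highest. The intervals, from 4 arrays per fraction, measure only the spread between these arrays. Each slide held 1 fraction only, so they do not separate a slide effect from a fraction effect.

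**Figure D4:**
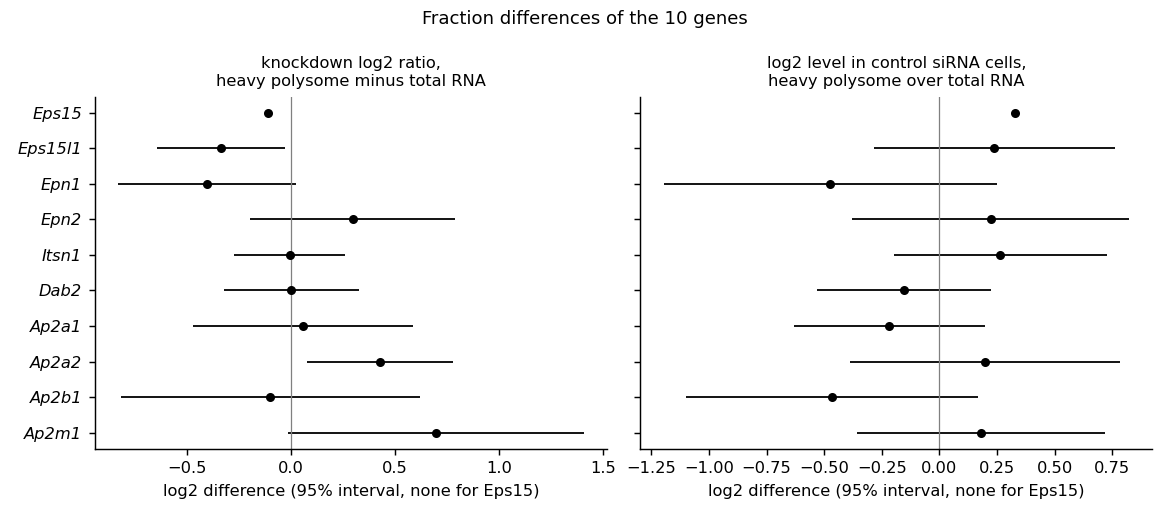
Log2 differences (x axis) for the 10 genes (y axis), with 95% intervals for all but Eps15, which is shown without a test. The left panel gives the knockdown ratio on heavy polysomes minus that in total RNA, the right panel the level on heavy polysomes over that in total RNA in control siRNA cells, where each of the 9 intervals spans 0.

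Beyond these 10 genes, 7 lists of the endocytic pathway with 116 genes were followed, of which 104 could be tested. On heavy polysomes 1 of the 104 was called higher and 9 were called lower, beside 4.82% and 4% of all tested genes. In total RNA 2 were called higher and 3 lower, beside 1.67% and 2.64%. None was called in the difference between fractions or between fractions in control cells. With heavy polysome replicates 2 and 4 averaged, Cltb, Igf1r and Igf2r kept their heavy polysome calls and the other 7 lost theirs. With median centring in place of loess, those 3 and Ap1b1 kept theirs, and in total RNA Mrc2 alone did. The heavy polysome count over all genes fell from 1312 to 450 with the averaging and to 193 with median centring. In total RNA it fell from 640 to 214 with median centring. The median log2 ratio of the 104 was -0.0037 on heavy polysomes and -0.07 in total RNA, beside 0.02 and -0.04 over all genes.

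Cltb, which encodes clathrin light chain b, rose in both fractions and was the only 1 of 9 tested coat and lattice genes to be called. Over all tested genes, 4.82% were called higher on heavy polysomes and 1.67% in total RNA. Cltb had log2 ratios of 0.98, 0.73, 1.32 and 0.89 in heavy polysome RNA and 0.32, 0.48, 0.57 and 0.89 in total RNA, all above 0. It averaged 0.98 ± 0.25, 1.97-fold higher, on heavy polysomes (limma adjusted p = 0.00356) and 0.56 ± 0.24, 1.48-fold higher, in total RNA (limma adjusted p = 0.0346). The heavy polysome call of Cltb held in every fit that left out an array (limma adjusted p at most 0.0240), while the call in total RNA was lost on leaving out any of total RNA replicates 1 to 4 or heavy polysome replicate 2 or 4 (0.0532 to 0.132). The clathrin heavy chain gene Cltc averaged -0.45 ± 0.34 and -0.38 ± 0.16 and was not called (limma adjusted p = 0.0588 and 0.123).

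Of 17 tested genes of scission and uncoating, only Sh3glb1, which encodes the membrane-curving protein endophilin B1, was called. It rose in total RNA alone, where 1.67% of all tested genes were called higher. Its ratios were 0.05, 0.74, 0.07 and 0.86 in heavy polysome RNA and 0.76, 0.91, 0.65 and 0.70 in total RNA. The total RNA mean was 0.75 ± 0.12 (limma adjusted p = 0.0244), the heavy polysome mean was 0.43 ± 0.43 (limma adjusted p = 0.0974), and the heavy polysome values split into low ones in replicates 1 and 3 and high ones in replicates 2 and 4. The Sh3glb1 call was lost on leaving out any of total RNA replicates 1 to 4 (0.0676 to 0.103). None of 9 tested regulators of AP2 and clathrin and none of 19 tested further endocytic adaptors was called. Among all tested genes, 4.82% were called higher and 4% lower on heavy polysomes, and 1.67% and 2.64% in total RNA. At such shares, lists of this size can hold no call without differing from other genes. The further adaptors included Ap2s1, the sigma subunit gene of AP2. Ap2s1 averaged -0.26 ± 0.55 on heavy polysomes and -0.37 ± 0.20 in total RNA.

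Among 21 tested genes of other adaptor complexes, which sort cargo at the Golgi and endosomes, 2 fell on heavy polysomes and 2 in total RNA. Over all tested genes, 4% were called lower on heavy polysomes and 2.64% in total RNA. Ap1m1, the mu subunit gene of AP1, averaged -0.53 ± 0.26 on heavy polysomes and -0.50 ± 0.19 in total RNA (limma adjusted p = 0.0238 and 0.0449). Ap1b1, the beta subunit gene of AP1, fell on heavy polysomes with ratios of -0.98, -1.03, -0.29 and -1.03 (mean -0.83 ± 0.36, limma adjusted p = 0.00876) and was not called in total RNA (-0.53 ± 0.23, limma adjusted p = 0.0638). Gga1, a Golgi-localised clathrin adaptor, fell in total RNA (-0.49 ± 0.14, limma adjusted p = 0.0272) and averaged -0.34 ± 0.18 on heavy polysomes (limma adjusted p = 0.0546). Without heavy polysome replicate 4 the Ap1b1 call was lost (0.0559), as was the heavy polysome call of Ap1m1 without heavy polysome replicate 2, 3 or 4 (0.0614 to 0.0897). Both calls in total RNA were lost on leaving out any of total RNA replicates 1 to 4 or heavy polysome replicate 2 or 4 (0.0518 to 0.146).

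Of 19 tested receptors that are taken up by endocytosis, 6 fell on heavy polysomes, beside 4% of all tested genes called lower. Mrc2, 1 of the 6, also fell in total RNA, where 2.64% of all tested genes were called lower. Igf2r, the receptor of IGF2 and of lysosomal enzymes, had ratios of -1.12, -0.71, -0.68 and -0.67 in heavy polysome RNA and 0.10, -0.27, -0.22 and 0.04 in total RNA. Igf1r, the IGF1 receptor, had ratios of -0.89, -0.55, -0.57 and -0.71 in heavy polysome RNA and 0.00, -0.29, -0.27 and -0.06 in total RNA. The heavy polysome means were -0.79 ± 0.21 for Igf2r and -0.68 ± 0.16 for Igf1r (limma adjusted p = 0.00441 and 0.00467), against -0.09 ± 0.18 and -0.16 ± 0.15 in total RNA (0.695 and 0.367). The difference between the fractions was -0.71 for Igf2r and -0.52 for Igf1r and was not called for either (limma adjusted p = 0.845 for both).

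The platelet-derived growth factor receptor genes Pdgfra (-0.65 ± 0.13) and Pdgfrb (-0.47 ± 0.17), the collagen receptor gene Mrc2 (-0.71 ± 0.32) and the lipoprotein receptor gene Vldlr (-0.52 ± 0.24) were the other receptor genes that fell on heavy polysomes (limma adjusted p = 0.0109 to 0.0496). Pdgfra and Pdgfrb are also among the stromal markers above. Mrc2 averaged -0.90 ± 0.55 in total RNA (limma adjusted p = 0.0347), with replicate 4 at -1.70 the farthest down. Calls of Igf1r and Igf2r held in every fit that left out an array (limma adjusted p at most 0.0325). Pdgfra was lost without heavy polysome replicate 4 (0.0603). The calls of Pdgfrb, Mrc2 and Vldlr on heavy polysomes were lost in 5 or 6 of the 8 such fits each, in all 3 without total RNA replicate 2 or heavy polysome replicate 2, 3 or 4, with limma adjusted p up to 0.131, 0.177 and 0.167. That of Pdgfrb was also lost without total RNA replicate 3 or heavy polysome replicate 1, that of Mrc2 without total RNA replicate 1 or 3 and that of Vldlr without total RNA replicate 1. The Mrc2 call in total RNA was lost on leaving out any of total RNA replicates 1 to 4 or heavy polysome replicate 2 or 4 (0.0608 to 0.0974).

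Ehd1, whose protein returns receptors from endosomes to the surface, was the only gene called of 10 tested genes of EHD-dependent recycling. It fell on heavy polysomes, where 4% of all tested genes were called lower. Its ratios there were -0.82, -0.32, -0.39 and -0.36 (mean -0.47 ± 0.23, limma adjusted p = 0.0446), and its mean in total RNA was -0.30 ± 0.27 (limma adjusted p = 0.189). The Ehd1 call was lost without total RNA replicate 2 or 3 or any 1 of heavy polysome replicates 1 to 4 (0.0716 to 0.116).

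**Figure D5:**
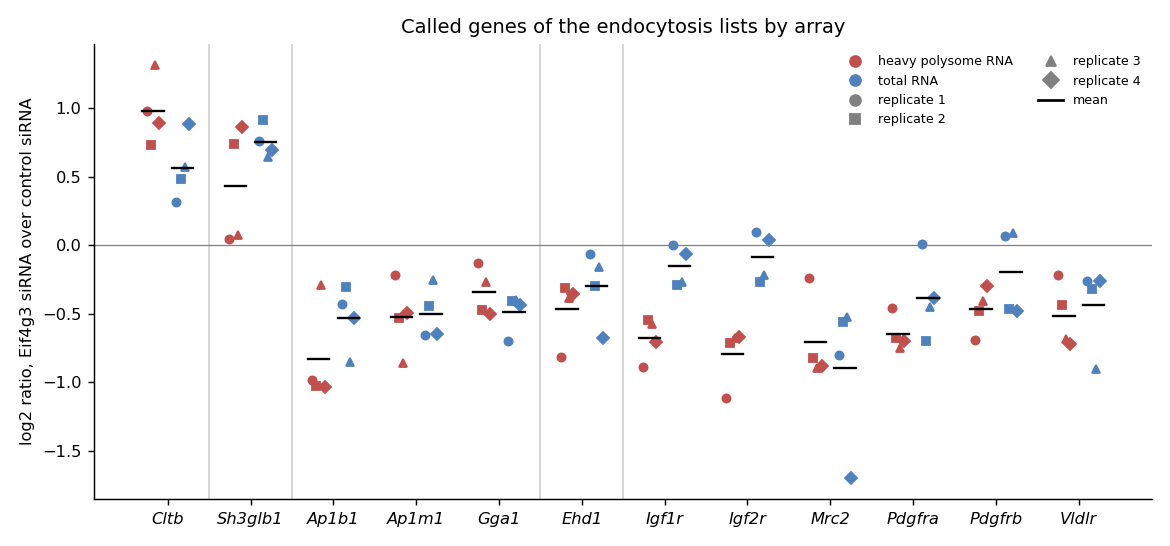
Log2 ratio of Eif4g3 siRNA over control siRNA (y axis) of the 12 genes of the pathway lists called in at least 1 fraction (x axis), with heavy polysome RNA left of total RNA, 1 symbol per replicate and a bar at the mean. Grey lines part the lists, in the order coat and lattice, scission, other adaptor complexes, recycling and receptors. Cltb and Sh3glb1 lie above 0 on all 8 arrays, and every heavy polysome value of the other 10 genes lies below 0.

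The log2 ratios of Eps15 over the 8 arrays were closest to those of Ccng2, which encodes cyclin G2, with a root mean square difference of 0.38. Ccng2 had ratios of 1.25, 1.34, 1.64 and 1.58 in heavy polysome RNA and 1.64, 0.79, 1.29 and 1.38 in total RNA. It was followed by Cnrip1 (0.45), the connexin 26 gene Gjb2 (0.46), the fibrillin-1 gene Fbn1 (0.47) and Pqlc3 (0.50). Of these, Fbn1 averaged 1.68 ± 0.54 on heavy polysomes and 1.77 ± 0.31 in total RNA, and Gjb2 averaged 1.52 ± 0.52 and 1.28 ± 0.42 in the same order of fractions. These genes were picked for ratios close to those of Eps15 on the same 8 arrays, so their values are a description. The measure depends on the height of the ratios as well as their course over the arrays, so genes with high ratios come nearest.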

How the data were processed

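Eif4g3 siRNA (Cy5) and control siRNA (Cy3) samples were compared on 8 arrays, 4 of heavy polysome and 4 of total RNA. Per the file headers, Agilent Feature Extraction 10.7.3.1 (protocol GE2_107_Sep09) made 7 of the tables and version 10.5.1.1 (GE2_105_Dec08) that of total RNA replicate 2; the submitters' processing notes name the tool. The deposited tables hold spot and background intensity in each channel and a dye-normalised log10 ratio. The deposited series matrix holds log2 ratios, which lay within 0.01 of the log2 ratio of the processed signals for 99.779% to 100% of the probes per array. Their array medians ran from -0.21 to 0.30, so they were not centred. Probe coordinates are mm8, per the file headers.

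Here, mean signals were background-corrected with normexp (offset 50) and ratios loess-normalised (span 0.3) with limma 3.58.1 in R 4.3.3. Flagged spots (131 to 241 per array) were left out, no spot was saturated, and spots of a probe were averaged. Probes were tested if either channel was marked well above background on 3 of 4 arrays of a fraction. Each gene was represented by its probe of highest average signal. Names came from the files, or from RefSeq by accession (23374 probes). A linear model with 1 coefficient per fraction over all 8 arrays gave two-sided p-values, Benjamini-Hochberg adjusted over all 14861 genes, with a threshold of 0.05. Cy3 levels were quantile-scaled between arrays on mean signal (Aquantile). The fits were tested on simulated data.

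The members and lists were chosen with earlier results of these data known. Named genes are all members, Eif4g3, every list gene called (at most 6 per list) and the 5 genes with the smallest root mean square difference from Eps15. Deviations of same-numbered heavy polysome and total RNA arrays correlated at -0.02, 0.17, -0.11 and -0.30, so the numbers were not treated as pairs. The number of arrays limits the precision. Alternatives were other normalisations, probe rules, blocks and left-out arrays. One merging heavy polysome replicates 2 and 4 was chosen after seeing the data.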

Additional observations from a re-analysis of the deposited data

Results flagged for a closer look

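Of 82 groups of 4 log2 ratios examined (1 gene or probe in 1 fraction), 10 held an array that stood far from the other 3. Chance flags about 1 in 20 groups. Of these 10, 4 were on heavy polysome replicate 1 and 2 each on heavy polysome replicate 3, total RNA replicate 1 and total RNA replicate 3.

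Among the members, Ap2b1 was at -0.71 on heavy polysome replicate 1, with the other arrays between -0.10 and -0.01. The Ap2m1 probe A_52_P114243 was at -0.81 on heavy polysome replicate 3, with the others between -0.22 and -0.14. The Ap2m1 probe A_52_P627749 was at -0.093 on total RNA replicate 3, with the others between -0.75 and -0.63.

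Among the list genes on heavy polysome replicate 1, Ehd1 was at -0.82 (others -0.39 to -0.32), Igf2r at -1.12 (others -0.71 to -0.67) and Mrc2 at -0.24 (others -0.90 to -0.82). Ap1b1 was at -0.29 on heavy polysome replicate 3 (others -1.03 to -0.98). In total RNA, Vldlr was at -0.91 on replicate 3 (others -0.32 to -0.26) and Gga1 at -0.70 on replicate 1 (others -0.44 to -0.40). Cnrip1 was at 1.64 on total RNA replicate 1 (others 1.12 to 1.18). The part of array quality in these values was not tested.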

How the results depend on the processing

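The knockdown ratios of Eps15, which chose the gene, stayed above 0 under every alternative run. Its ratio was above 0 on every array, so leaving out 1 array could not change the sign. Leaving out 1 array gave 1.44 to 1.82 on heavy polysomes and 1.61 to 1.82 in total RNA, and the other settings gave 1.42 to 1.81 and 1.34 to 2.12. Its difference between fractions turned to 0.082 with the mean of both probes, and lay at 0.11 without heavy polysome replicate 1. Ap2a1, Ap2a2 and Epn1 kept a negative ratio in each fraction in which they were called, under every alternative. Their ratios there were negative on every array, so left-out arrays could not change the sign.

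Over all genes, the count called was 1312 on heavy polysomes and 640 in total RNA. Leaving out 1 array gave 352 to 1552 on heavy polysomes and 52 to 1353 in total RNA. With slide as a random block it was 2639 and 1497, from a fit with an estimated correlation of -0.27 within slides. Without loess it was 193 and 214, with processed signals 2078 and 1481, and with the deposited matrix 2079 and 1480. With heavy polysome replicates 2 and 4 averaged it was 450 and 303, and with each fraction fitted alone 384 on heavy polysomes. With loess and all arrays, 717 of the 1312 and 248 of the 640 were higher. Without loess 86 of 193 and 43 of 214 were higher, and with processed signals 1162 of 2078 and 808 of 1481. The difference between fractions had 0 calls by limma in every fit (473 to 1559 genes at an unadjusted p under 0.05). The contrast of fractions in control cells had 314 calls, 71 to 342 without 1 array, 60 with the replicate block and 132 with replicates 2 and 4 averaged. The replicate block left the difference between fractions at 0 calls, and no tested member was called in either contrast with it. The causes of these shifts were not tested.

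Reversals were of values that had not been called, from near 0 up to 0.31 for Ap2m1 on heavy polysomes. In total RNA, Eps15l1 was at -0.18 and Dab2 at -0.072 without loess, where Itsn1 was at 0.26, and the mean of all probes gave Eps15l1 -0.086 and Dab2 -0.0029. Ap2b1 was at 0.090 in total RNA and Dab2 at -0.0036 on heavy polysomes with processed signals or the deposited matrix, and Ap2m1 at -0.022 on heavy polysomes with the mean of all probes. In the difference between fractions, Itsn1 was at 0.0076 and Dab2 at -0.016 with slide as a block, at 0.22 and -0.12 with processed signals or the deposited matrix, Itsn1 was at 0.049 with the mean of all probes and Ap2b1 at 0.080 without loess. Leaving out 1 array gave ranges that cross 0 in total RNA for Eps15l1 (-0.017 to 0.044), Dab2 (-0.0035 to 0.14) and Ap2b1 (-0.29 to 0.22), and on heavy polysomes for Dab2 (-0.015 to 0.14). It did so in the difference for Eps15 (-0.26 to 0.11), Itsn1 (-0.077 to 0.043), Dab2 (-0.086 to 0.077), Ap2a1 (-0.16 to 0.21) and Ap2b1 (-0.44 to 0.066). Of the 9 settings other than left-out arrays, heavy polysome calls of list genes were lost in 0 for Cltb, Igf1r and Igf2r, 2 for Ap1b1 and Pdgfra, 3 for Ap1m1, 4 for Vldlr, 5 for Mrc2 and 6 for Ehd1 and Pdgfrb (limma adjusted p up to 0.266). Calls in total RNA were lost in 1 for Sh3glb1, 3 for Cltb, Gga1 and Mrc2 and 5 for Ap1m1 (up to 0.0879). These settings overlap and are not separate checks. Processed signals and the deposited matrix hold nearly the same ratios, and testing each probe as its own row keeps the ratios of the main fit. Eps15l1 on heavy polysomes passed with slide as a random block (limma adjusted p = 0.0214). That fit used an estimated correlation of -0.27 between log2 ratios on the same slide. A negative value lowers the standard error of a fraction mean, so this pass is no stricter test.

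With 4 arrays per fraction, no dye swap and replicates of unstated origin, most calls lie near the threshold. Signal over background limits the dimmer Itsn1 and Dab2 probes.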
